A study of Mus musculus with 8 samples.

Results

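The transcripts of 42 genes that make or run the ribosome were followed in sorted prostate epithelium of mice with and without Kmt2c, a gene for a histone H3 lysine methyltransferase. They were chosen by name from 55335 gene identifiers. The list holds 21 translation genes (elongation factors, initiation factors and their partners) and 21 ribosome biogenesis genes (nucleolar proteins, small nucleolar ribonucleoprotein proteins, assembly factors and RNA polymerase I genes). All 42 were among the 14000 genes tested, which had at least 1 FPKM in at least 2 libraries. Wdr12, a large subunit assembly factor, reached 1 FPKM in the PPK ADT libraries only, so its presence among the tested genes rests on the group in which it was highest. The counts below include Wdr12, but its own call is no support for them.

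Ribosome biogenesis starts in the nucleolus, where RNA polymerase I copies the ribosomal DNA and small nucleolar ribonucleoproteins (snoRNPs) direct methylation (box C/D type) and pseudouridylation (box H/ACA type) of the transcript. Assembly factors then fold and cut it into the subunits. In translation, eIF3 and the cap-binding complex bring the small subunit to the messenger RNA, and the elongation factors deliver aminoacyl-tRNA and move the ribosome along. Many mRNAs of this machinery, those of most elongation factors among them, begin with a terminal oligopyrimidine (TOP) tract, a C followed by further pyrimidines, through which mTOR signalling controls their translation. The Myc transcription factor, which binds the sequence CACGTG, is a known activator of many nucleolar genes.

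All mice carried the shared prostate deletion that the library names call PP, and PPK mice carried Kmt2cPC-/- in addition. Each genotype was profiled as sham at 3.5 months of age and as ADT (the usual abbreviation of androgen deprivation therapy) at 6.5 months. This gave 4 groups, PP sham, PPK sham, PP ADT and PPK ADT, of 2 libraries each, labelled A and B. The cells were EpCAM+, CD24a+ and low for CD49f, a sort that favours luminal over basal epithelium. ADT and age change together and cannot be told apart. The labels state neither the promoter that drives the deletions nor the kind of ADT, and they do not say that A and B came from separate animals, so the p-values reflect no more than the spread between libraries, which may be technical.

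The windows around the annotated starts are shown first, because the TOP tract is the feature by which elongation and initiation factors differ from nucleolar genes in textbook accounts. RefSeq sequences (GRCm38.p6) were at hand for 32 of the 42 genes, and each window holds 15 bases on either side of the start, 5′ to 3′ on the gene's strand. Capitals mark the longest run of pyrimidines. The starts are those of the annotation and were not measured here. A run is thus a description of letters and not a TOP tract, and its absence does not show that a tract is lacking. The choice of genes named elongation and initiation factors as TOP mRNAs, so the counts of runs describe the classes and are not independent of the choice. Of 15 translation genes, 5 (33.3%) had a run of at least 8 pyrimidines in a start window, against 0 of 17 biogenesis genes and 13.9% of all 27025 genes in the RefSeq table. The run of Eif4e lies wholly before the annotated start. A C followed by 4 more pyrimidines exactly at the annotated first base was found in 2 of 15 translation genes (Eif3f and Rack1), in 0 of 17 biogenesis genes and in 3.01% of all genes. The windows with the long run lie at chr9:78481710-78481739 (minus strand, Eef1a1), chr7:108934400-108934429 (plus, Eif3f), chr15:79075208-79075237 (plus, Eif3l), chr3:138527253-138527282 (plus, the downstream annotated start of Eif4e) and chr11:48800345-48800374 (plus, Rack1):
Eef1a1: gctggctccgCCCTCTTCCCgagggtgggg
Eif3f: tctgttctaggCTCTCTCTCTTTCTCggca
Eif3l: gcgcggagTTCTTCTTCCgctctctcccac
Eif4e: tcgCCCCCCCTTCaggagcggttgtgcgat
Rack1: cggaggccgCTCTTTCTTTTTCTCCacagg

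Eef1b2 and the snoRNP genes Nop56 and Dkc1, 3 of the genes with the larger changes described below, are shown for contrast. Their windows are chr1:63176816-63176845, chr2:130274397-130274426 and chrX:75095839-75095868, all on the plus strand, and their longest runs are 4, 5 and 5 bases:
Eef1b2: tggacctgcagTTCCgccggaagtagccga
Nop56: aggtgtggTCTCCgcagtctggttccgcgc
Dkc1: tccaggcgcatgtgcggtcacaCCTCCgtg

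The Myc-type motif CACGTG, which reads the same on both strands and overlaps no pyrimidine run above, was sought in the 250 bases before and 50 bases after each start. It occurred in 5 of 15 translation genes (33.3%: Eef2, Eif3f, Eif3k, Eif4a1 and Eif4e), in 2 of 17 biogenesis genes (11.8%: Pes1 and Mybbp1a) and in 8.09% of all 27025 genes. A match is a description of letters and not a binding site. Capitals mark the motif in windows of 30 bases around it at chr10:81176576-81176605 (plus strand, Eef2), chr7:108934335-108934364 (plus, Eif3f), chr11:3963965-3963994 (plus, Pes1) and chr11:72441347-72441376 (plus, Mybbp1a):
Eef2: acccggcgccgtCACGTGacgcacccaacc
Eif3f: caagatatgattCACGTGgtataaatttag
Pes1: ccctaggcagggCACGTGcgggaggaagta
Mybbp1a: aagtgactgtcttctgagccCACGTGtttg

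The deposited values are FPKM (fragments scaled to transcript length and to the library's mapped total), so depth had to be estimated from the lowest values and came to between 17600000 and 25100000 fragments per library. Libraries of the same group correlated at 0.986 to 0.988 and libraries of different groups at 0.805 to 0.958 (Pearson, log2 scale, across genes, which are not independent replicates). Kmt2c itself was at 13.3 and 13.9 FPKM in PP sham, 8.67 and 8.15 in PPK sham, 10.3 and 9.33 in PP ADT and 6.6 and 6.36 in PPK ADT. It was lower in PPK in both settings (log2 fold change -0.63 in sham, limma adjusted p = 0.000795, and -0.53 in ADT, adjusted p = 0.00054), with transcript left in every library. The 7 luminal epithelial markers were present in all libraries, summing to between 5998 and 8624 FPKM outside PPK ADT and to 4276 and 4297 FPKM within it. The 9 basal and squamous markers summed to between 1289 and 1657 FPKM in the other 3 groups and to 7726 and 7826 FPKM in PPK ADT. Whether luminal and basal transcripts came from the same cells or from separate ones was not tested. No basal or squamous marker was at 0 in any library.

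Most of the 42 genes were highest in PPK ADT, but the PPK ADT values of Eif4ebp1, Nop10 and Ubtf overlapped those of PPK sham. In ADT mice, 40 of them were higher in PPK than in PP epithelium and none was lower, whereas 32.5% of all genes tested were higher and 27.1% lower at the same threshold (limma, Benjamini-Hochberg adjusted p under 0.05 over all genes, two-sided). The FPKM of all 42 were above those of PP ADT in both PPK ADT libraries, as they were for 43.3% of all genes. The median log2 fold change was 0.94 for translation genes and 0.81 for biogenesis genes, against 0.05 over all genes tested. Only Eif4e and Rrp9 did not pass.

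In sham mice the same genotypes differed little, with 3 of the 42 genes higher and 6 lower in PPK, against 13.7% and 14.9% of all genes. Translation genes made up 1.06% of all FPKM in PP sham, 0.977% in PPK sham, 1.03% in PP ADT and 2.07% in PPK ADT. The corresponding shares of the biogenesis genes were 0.0954%, 0.0988%, 0.0991% and 0.18%. Fold changes here are of FPKM + 1, which understates the change of low genes, and ± gives 1 SE of the limma fit. In bulk RNA, more cells of a type and more RNA per cell cannot be told apart.

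**Figure D1:**
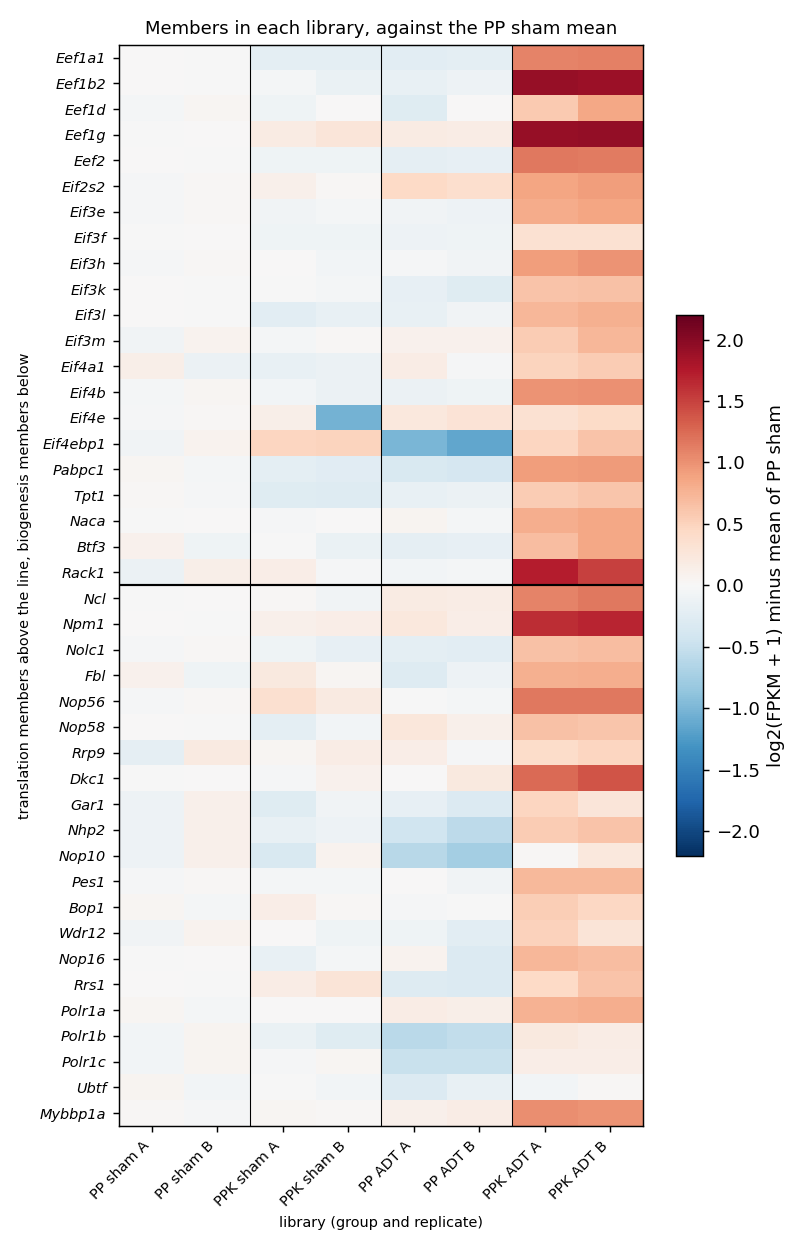
Level of each of the 42 genes (rows) in each of the 8 libraries (columns), as log2(FPKM + 1) minus the mean of the PP sham libraries, in colour. The translation genes stand above the black line and the biogenesis genes below it, and both PPK ADT columns are red for most genes, with Ubtf, Polr1c and Nop10 near 0.

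The heat map of all 42 genes by library shows this pattern in both replicates of PPK ADT. Elsewhere it is paler, apart from low values of Eif4ebp1, Nop10, Polr1b, Nhp2 and Polr1c in PP ADT and of Eif4e in PPK sham replicate B. The plot of genotype effects sets the sham and ADT values of each gene side by side.

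**Figure D2:**
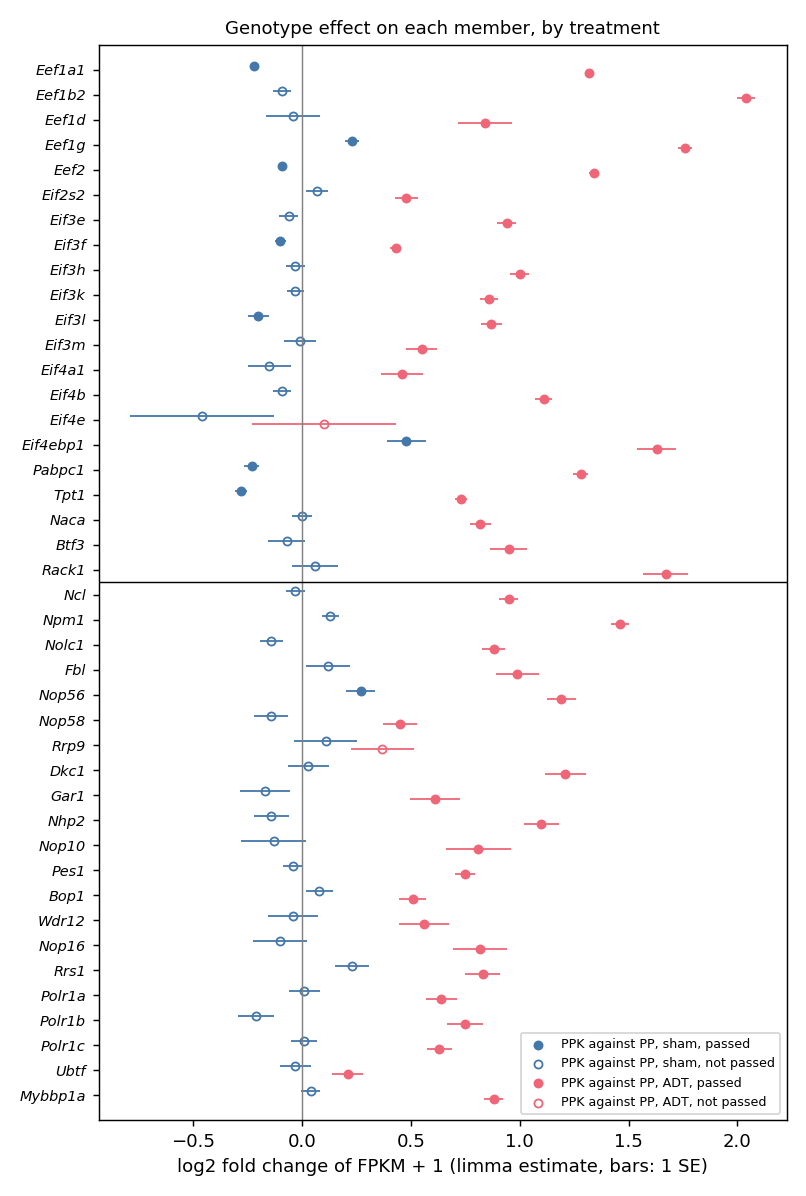
Log2 fold change of FPKM + 1, PPK against PP, for each gene in sham (blue) and ADT (red) mice, with bars of 1 SE and filled points where the adjusted p passed 0.05. The red points run from 0.10 (Eif4e) to 2.04 (Eef1b2), while the blue ones lie between -0.46 and 0.48.

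Elongation factors had the highest median change of the roles with more than 1 gene. In ADT mice all 5 were higher in PPK, with a median log2 fold change of 1.34 and 4 of them past 2-fold, a size that 9.91% of all genes reached in this direction. Eef1a1 (ENSMUSG00000037742, chr9:78478449-78489151, minus strand), which carries aminoacyl-tRNA to the ribosome and was the most abundant member, had 1380.2 and 1378 FPKM in PP sham, 1187 and 1182 in PPK sham, 1181 and 1193 in PP ADT and 2940.2 and 2986 in PPK ADT. Both PPK ADT libraries were above all 6 others, which lay within a narrow band. The fold change in ADT mice was 1.32 ± 0.018 (adjusted p = 4.58e-08), and this 1 gene made up 0.894% of all FPKM in PPK ADT against 0.416% in PP ADT.

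Eef1b2 (ENSMUSG00000025967, chr1:63176825-63180486, plus strand), a subunit of the exchange factor that reloads eEF1A with GTP, had 61.5 and 61.4 FPKM in PP sham, 59.8 and 55.7 in PPK sham, 54.8 and 56.8 in PP ADT and 235 and 229 in PPK ADT. Its change of 2.04 ± 0.042 (adjusted p = 1.55e-07), 4.11-fold, exceeded that of the other 41 genes in this comparison. Eef1g (ENSMUSG00000071644, chr19:8967041-8978479, plus strand), the structural partner in the same complex, had 95.4 and 96 FPKM in PP sham, 109 and 115 in PPK sham, 108 and 107 in PP ADT and 364 and 368 in PPK ADT. Its PPK ADT libraries again stood apart, and it rose by 1.76 ± 0.032 (adjusted p = 1.07e-07).

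The change of Eef1d, the third exchange subunit, was smaller. It had 6.24 and 7.71 FPKM in PP ADT and 11.9 and 14.7 in PPK ADT, a change of 0.84 ± 0.12 (adjusted p = 0.00123). The ratio of Eef1d to Eef1b2 FPKM was 0.125 in PP sham, 0.129 in PPK sham, 0.125 in PP ADT and 0.0573 in PPK ADT. Eef2, the translocase that moves the ribosome by a codon, rose with Eef1a1 (1.34 ± 0.020, adjusted p = 5.5e-08), and the ratio of Eef1a1 to Eef2 stayed between 2.21 and 2.41 in the 4 group means. Eef1a1, Eef1g and several other members have near-identical processed pseudogenes, so the share of reads that the authors' counting gave them is uncertain.

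Initiation factors rose less. Of 10, 9 were higher in PPK among ADT mice, with a median of 0.70. The 6 subunits of eIF3, the scaffold that holds the small subunit at the cap, were all higher, from 0.43 (Eif3f) over 0.55 (Eif3m), 0.86 (Eif3k), 0.87 (Eif3l) and 0.94 (Eif3e) to 1.00 (Eif3h). Eif3f (chr7:108934417-108942951, plus strand), whose start holds the 15-base pyrimidine run shown above, had 102 and 103 FPKM in PP sham, 96.5 and 95.5 in PPK sham, 94.5 and 96.4 in PP ADT and 129 and 129 in PPK ADT. Eif3h (chr15:51786558-51865523, minus strand) had 82.9 and 85.2 FPKM in PP sham, 84.8 and 80.1 in PPK sham, 82.8 and 79.6 in PP ADT and 159 and 167 in PPK ADT. For both genes the 2 PPK ADT libraries were the highest of the 8, and the adjusted p in ADT mice was 1.3e-05 for Eif3f and 3.23e-06 for Eif3h.

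Eif4b (chr15:102073773-102097173, plus strand), the helper of the eIF4A helicase, changed most among initiation factors. It had 70 and 74.6 FPKM in PP sham, 69.3 and 66.3 in PPK sham, 66.1 and 67.8 in PP ADT and 145 and 146 in PPK ADT. The PPK ADT libraries were apart from the rest, and the change of 1.11 ± 0.041 (adjusted p = 1.7e-06) was the only one past 2-fold in this class. The helicase gene Eif4a1 (0.46 ± 0.098, adjusted p = 0.00631) and Eif2s2, a subunit of the factor that brings the initiator tRNA (0.48 ± 0.051, adjusted p = 0.000246), changed less.

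The cap-binding protein and its repressor parted. Eif4e, which binds the cap, was the only translation gene that did not pass in ADT mice, at 0.10 ± 0.33 (adjusted p = 0.818), with the widest error of the 42 genes. It had 10.1 and 10.5 FPKM in PP sham, 11.3 and 4.47 in PPK sham, 12.3 and 13 in PP ADT and 13.3 and 14.1 in PPK ADT. The PPK sham replicate B lay far below the other 7, and leaving out either PPK sham library did not make the difference in ADT mice pass. ADT against sham in PPK, 0.84 with both (adjusted p = 0.064), passed at 0.26 without PPK sham replicate B and at 1.42 without replicate A. PPK against PP in sham was -0.46 with both (adjusted p = 0.351). It was -1.05 without replicate A, when only the low library was left, and 0.12 without replicate B, so its direction rested on that library.

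Eif4ebp1 (ENSMUSG00000031490, chr8:27260329-27276674, plus strand), which holds eIF4E away from the cap-binding scaffold until mTOR phosphorylates it, was separated by genotype. It was at 5.51 and 6.21 FPKM in PP sham, 8.51 and 8.57 in PPK sham, 2.42 and 2.09 in PP ADT and 8.52 and 9.57 in PPK ADT. The 4 PPK libraries were above all 4 PP libraries, and PP ADT was the lowest group, an arrangement that Rrs1, described below, shared. PPK exceeded PP by 1.63 ± 0.089 in ADT mice (adjusted p = 1.05e-05). In PP it fell by 1.08 on the log2 scale with ADT (adjusted p = 0.000142). In PPK, ADT against sham gave 0.07 ± 0.089 (adjusted p = 0.503). The ratio of Eif4ebp1 to Eif4e FPKM was 0.546 and 0.59 in PP sham, 0.196 and 0.161 in PP ADT and 0.641 and 0.681 in PPK ADT. In PPK sham it was 0.755 and 1.91, the latter in the replicate with the low Eif4e value.

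Among the remaining translation genes, all 5 rose in PPK against PP among ADT mice, with a median of 0.95. Rack1 (chr11:48800332-48806434, plus strand), a scaffold protein of the small subunit, had 67.7 and 80.3 FPKM in PP sham, 81.6 and 72.3 in PPK sham, 70.8 and 71.5 in PP ADT and 246 and 212 in PPK ADT. Pabpc1 (chr15:36595661-36609668, minus strand), the poly(A)-binding protein, had 133 and 126 FPKM in PP sham, 111 and 108 in PPK sham, 102 and 99.9 in PP ADT and 246 and 249 in PPK ADT. In each, the PPK ADT libraries were the 2 highest, and the changes were 1.67 ± 0.11 (adjusted p = 1.98e-05) and 1.28 ± 0.034 (adjusted p = 4.42e-07).

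Tpt1 (chr14:75845093-75848525, plus strand), which encodes the translationally controlled tumour protein, had 391 and 380.3 FPKM in PP sham, 319.6 and 316 in PPK sham, 346 and 352 in PP ADT and 567 and 592 in PPK ADT. Its rise in ADT mice was smaller (0.73 ± 0.029, adjusted p = 2.43e-06), and in sham mice it was lower in PPK (-0.28, adjusted p = 0.000762). Naca and Btf3, the partners of the nascent polypeptide-associated complex at the tunnel exit, rose by 0.82 ± 0.047 (adjusted p = 1.34e-05) and 0.95 ± 0.086 (adjusted p = 0.000115). Processed pseudogenes make the counts of Tpt1 and Naca uncertain as well.

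Of the 21 biogenesis genes, 20 were higher in PPK among ADT mice, but only 4 passed 2-fold on the FPKM + 1 scale, against 8 of the 21 translation genes. With 0.1 added to the FPKM in place of 1, the median was 0.91 for biogenesis and 0.95 for translation genes. The gap between the classes thus depends on the added value. The 3 nucleolar proteins were all higher. Npm1 (ENSMUSG00000057113, chr11:33152287-33163206, minus strand), a nucleolar chaperone of ribosome export, had 73.1 and 71.6 FPKM in PP sham, 78.1 and 80.4 in PPK sham, 85.1 and 79.8 in PP ADT and 225 and 233 in PPK ADT. Ncl (chr1:86344719-86359400, minus strand), which encodes nucleolin, a binder of nascent ribosomal RNA, had 34.8 and 35.5 FPKM in PP sham, 35.6 and 33.2 in PPK sham, 40.1 and 39.5 in PP ADT and 76.4 and 79.4 in PPK ADT. The PPK ADT libraries lay above all others for both. Their changes in ADT mice were 1.46 ± 0.040 (adjusted p = 4.75e-07), the largest among biogenesis genes, and 0.95 ± 0.043 (adjusted p = 4.36e-06). Nolc1, a chaperone of snoRNPs, rose by 0.88 ± 0.053 (adjusted p = 1.5e-05). Npm1 has many processed pseudogenes, so its count is uncertain.

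Box C/D snoRNP proteins were split. Fbl (chr7:28169710-28179269, plus strand), the methyltransferase fibrillarin, had 9.76 and 8.36 FPKM in PP sham, 10.6 and 9.31 in PPK sham, 7.2 and 8.32 in PP ADT and 16.3 and 16.4 in PPK ADT. Nop56 (chr2:130274430-130279313, plus strand), a core protein of the particle, had 6.83 and 7.04 FPKM in PP sham, 9.17 and 8.06 in PPK sham, 6.85 and 6.69 in PP ADT and 16.7 and 16.7 in PPK ADT. In both genes PPK ADT was the highest group, with changes of 0.99 ± 0.099 (adjusted p = 0.000189) and 1.19 ± 0.066 (adjusted p = 1.13e-05). Nop58, the other core protein, changed by 0.45 ± 0.078 (adjusted p = 0.00254). Rrp9, which recognises the U3 snoRNA, had 3.47 and 3.01 FPKM in PP ADT and 4.35 and 4.61 in PPK ADT, and its change of 0.37 ± 0.15 did not pass (adjusted p = 0.065).

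The 4 core proteins of the box H/ACA snoRNP were all higher in PPK among ADT mice, with a median of 0.95. Dkc1 (ENSMUSG00000031403, chrX:75095854-75109777, plus strand), the pseudouridine synthase dyskerin, had 4.07 and 4.18 FPKM in PP sham, 4.06 and 4.44 in PPK sham, 4.14 and 4.98 in PP ADT and 11.2 and 12.4 in PPK ADT. Nhp2 (chr11:51619735-51623714, plus strand), its RNA-binding partner, had 23.7 and 27.6 FPKM in PP sham, 22.8 and 23.5 in PPK sham, 18.7 and 16.9 in PP ADT and 38.3 and 40.1 in PPK ADT. Dkc1 was near the same level in the 3 other groups, whereas Nhp2 was lower in PP ADT than in the sham groups.

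The changes in ADT mice were 1.21 ± 0.095 for Dkc1 (adjusted p = 5.65e-05), 1.10 ± 0.080 for Nhp2 (adjusted p = 3.96e-05), 0.81 ± 0.15 for Nop10 (adjusted p = 0.00349) and 0.61 ± 0.11 for Gar1 (adjusted p = 0.0036). Nop10 and Gar1 are the small partners of the enzyme. The ratio of Nop10 to Dkc1 FPKM was 5.28 in PP sham, 4.68 in PPK sham, 2.96 in PP ADT and 2.03 in PPK ADT.

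**Figure D3:**
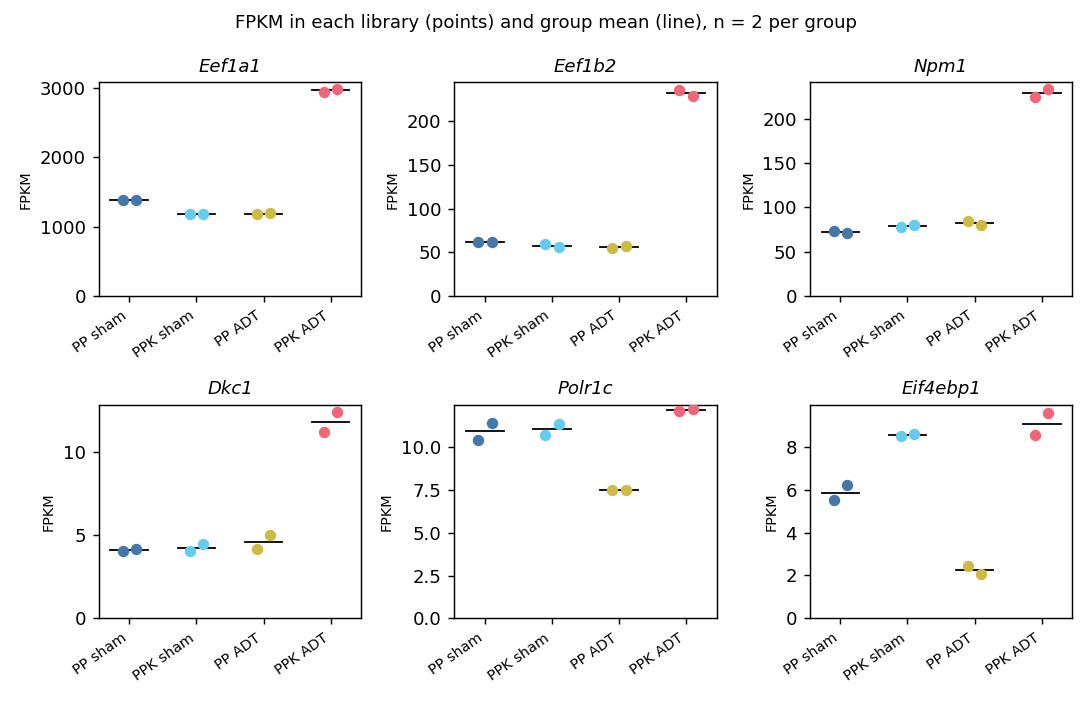
FPKM of 6 of the genes in each library (points) and the mean of each group (line), on linear axes that start at 0. Eef1a1, Eef1b2, Npm1 and Dkc1 are apart in PPK ADT alone, while Polr1c and Eif4ebp1 are lowest in PP ADT.

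All 5 large subunit assembly genes were higher in PPK among ADT mice, between 0.51 and 0.83, and none passed 2-fold on the FPKM + 1 scale. Wdr12 is counted here although it was tested only through its PPK ADT values. Pes1 (chr11:3963975-3980004, plus strand), which forms a complex with Bop1 and Wdr12 in the maturation of the large subunit RNA, had 13.7 and 14.1 FPKM in PP sham, 13.5 and 13.4 in PPK sham, 14 and 13.1 in PP ADT and 23.3 and 23.4 in PPK ADT. It rose by 0.75 ± 0.046 (adjusted p = 1.76e-05), Bop1 by 0.51 ± 0.062 (adjusted p = 0.000462) and Wdr12, which was near 1 FPKM throughout, by 0.56 ± 0.12 (adjusted p = 0.00593).

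Rrs1 (chr1:9545408-9547455, plus strand), which helps to bring the 5S particle into the large subunit in yeast, had 9.33 and 9.14 FPKM in PP sham, 10.5 and 11.5 in PPK sham, 7.39 and 7.27 in PP ADT and 12.8 and 14.8 in PPK ADT. Nop16 (chr13:54584185-54590090, minus strand), a nucleolar assembly protein, had 6.4 and 6.47 FPKM in PP sham, 5.65 and 6.23 in PPK sham, 6.85 and 5.01 in PP ADT and 11.3 and 10.9 in PPK ADT. The PPK ADT libraries were the highest for both, and the changes in ADT mice were 0.83 ± 0.080 (adjusted p = 0.000155) and 0.82 ± 0.12 (adjusted p = 0.00139).

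RNA polymerase I genes had the lowest median of the roles, 0.64, and all 5 passed in ADT mice, Ubtf by a margin that most alternatives removed. Mybbp1a (chr11:72441355-72451768, plus strand), a nucleolar regulator of ribosomal DNA transcription, had 13.3 and 12.8 FPKM in PP sham, 13.5 and 13.3 in PPK sham, 14.1 and 14.7 in PP ADT and 27.7 and 26.8 in PPK ADT. Polr1a (chr6:71909053-71984935, plus strand), the largest subunit, had 2.63 and 2.4 FPKM in PP sham, 2.55 and 2.55 in PPK sham, 2.92 and 2.82 in PP ADT and 4.96 and 5.14 in PPK ADT. Both were highest in PPK ADT, with changes of 0.88 ± 0.045 (adjusted p = 7.48e-06) and 0.64 ± 0.071 (adjusted p = 0.000298).

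For Polr1b and Polr1c, further subunits of the enzyme, the difference in ADT mice came with low values in PP ADT. Polr1c had 10.4 and 11.4 FPKM in PP sham, 10.7 and 11.3 in PPK sham, 7.47 and 7.5 in PP ADT and 12.1 and 12.2 in PPK ADT. PPK exceeded PP by 0.63 ± 0.058 in ADT mice (adjusted p = 0.000121), while ADT against sham in PPK gave 0.13 ± 0.058 (adjusted p = 0.0843). Ubtf, which opens the ribosomal DNA for the polymerase, had 13 and 14.4 FPKM in PP ADT and 15.5 and 16.5 in PPK ADT, a change of 0.21 ± 0.070 (adjusted p = 0.0364). It lost this call under 10 of 16 alternatives, median-of-ratios scaling and the omission of PP ADT replicate A or of any PPK library among them, with adjusted p from 0.0314 to 0.173 over all 16.

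Whether the genotype effect itself differed between ADT and sham mice was tested as an interaction. The difference was positive and passed for 39 of the 42 genes (20 translation and 19 biogenesis), against 30.0% of all genes with a positive and 22.8% with a negative difference that passed. Its median was 1.02 for translation genes and 0.84 for biogenesis genes, against 0.09 over all genes. Eif4e (0.56 ± 0.47, adjusted p = 0.351), Rrp9 (0.26 ± 0.20, adjusted p = 0.322) and Ubtf (0.25 ± 0.099, adjusted p = 0.0763) did not pass. The value of Eif4e was -0.02 (adjusted p = 0.878) without PPK sham replicate B and 1.15 (adjusted p = 0.000383) without replicate A.

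In sham mice, 2 of 21 translation genes were higher in PPK and 6 lower, with a median of -0.07 against -0.02 over all genes. The lower ones were Eef1a1 (-0.22, adjusted p = 0.000302), Eef2 (-0.09, adjusted p = 0.018), Eif3f (-0.10, adjusted p = 0.0307), Eif3l (-0.20, adjusted p = 0.0268), Pabpc1 (-0.23, adjusted p = 0.00329) and Tpt1. Of 16 alternatives, 8 removed the call of Eif3f, 7 that of Eef2 and 5 that of Eif3l. Eef1a1, Pabpc1 and Tpt1 kept theirs under all 16. The higher ones were Eef1g (0.23, adjusted p = 0.00264) and Eif4ebp1 (0.48, adjusted p = 0.00878). Of the biogenesis genes only Nop56 passed (0.27, adjusted p = 0.0238), a call lost under 4 of 16 alternatives. No change in sham mice reached 2-fold, a size at which 1.96% of all genes were higher and 1.72% lower. Without PP sham replicate A, 4 translation genes passed. No biogenesis gene passed without PP sham replicate A or B or PPK sham replicate A, and 2 passed without any 1 of the 4 ADT libraries.

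ADT with age had small effects in PP. Of the translation genes 2 rose and 8 fell, and of the biogenesis genes 2 rose and 7 fell, against 19.1% of all genes that rose and 25.1% that fell. The medians were -0.11 and -0.12, against -0.07 over all genes. With median-of-ratios scaling the split was 2 up and 5 down for translation genes and 4 up and 4 down for biogenesis genes, so the balance of directions depends on the scaling. Eif4ebp1 was the only member that fell past 2-fold, as 4.39% of all genes did. The larger falls beside it were in snoRNP and polymerase genes: Nop10 by 0.67 (adjusted p = 0.0118), Polr1b by 0.57 (adjusted p = 0.00181), Nhp2 by 0.50 (adjusted p = 0.00282) and Polr1c by 0.49 (adjusted p = 0.000753). Pabpc1 fell by 0.35 (adjusted p = 0.000307), Rrs1 by 0.30 (adjusted p = 0.0239), Ubtf by 0.23 (adjusted p = 0.0374) and Eef1a1, Eif3k and Nolc1 by 0.22 each. Eef2, Eef1b2, Tpt1 and Eif3f fell by between 0.10 and 0.19, and Tpt1 turned to 0.04 with quantile normalization. The calls of Ubtf, Eef1b2 and Rrs1 were lost under 11, 10 and 7 of 16 alternatives, median-of-ratios scaling among them. Those of Eif3f, Ncl, Nolc1, Tpt1 and Nop10 were lost under 5, 4, 3, 3 and 2, and those of Npm1 and Eef2 under 1 each. The genes that rose were Eif2s2 (0.41, adjusted p = 0.00098), Ncl and Npm1 (0.18 each) and Eef1g (0.17). Of the 9 biogenesis genes that passed, 4 did so without PP sham replicate B and 5 without PP ADT replicate B.

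In PPK, ADT with age raised 19 translation genes and 17 biogenesis genes and lowered none, against 31.9% of all genes that rose and 30.7% that fell, with medians of 0.86 and 0.73 against 0.00 over all genes. Past 2-fold were 7 translation and 3 biogenesis genes, against 10.1% of all genes in this direction. This comparison shares the PPK ADT libraries with the genotype comparison in ADT mice and is no separate support for it. Eef1b2 (1.99), Eef1g (1.70), Rack1 (1.56), Npm1 (1.52), Eef1a1 (1.32) and Dkc1 (1.29) rose most. Eif4e, Eif4ebp1, Rrp9, Nop10 (0.27, adjusted p = 0.165), Polr1c and Ubtf (0.02, adjusted p = 0.831) did not pass. The plot of ADT effects in both genotypes shows Eif4ebp1, Nop10, Polr1b and Polr1c to the left, where PP fell, and Eef1b2 and Eef1g at the top, where PPK rose most.

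**Figure D4:**
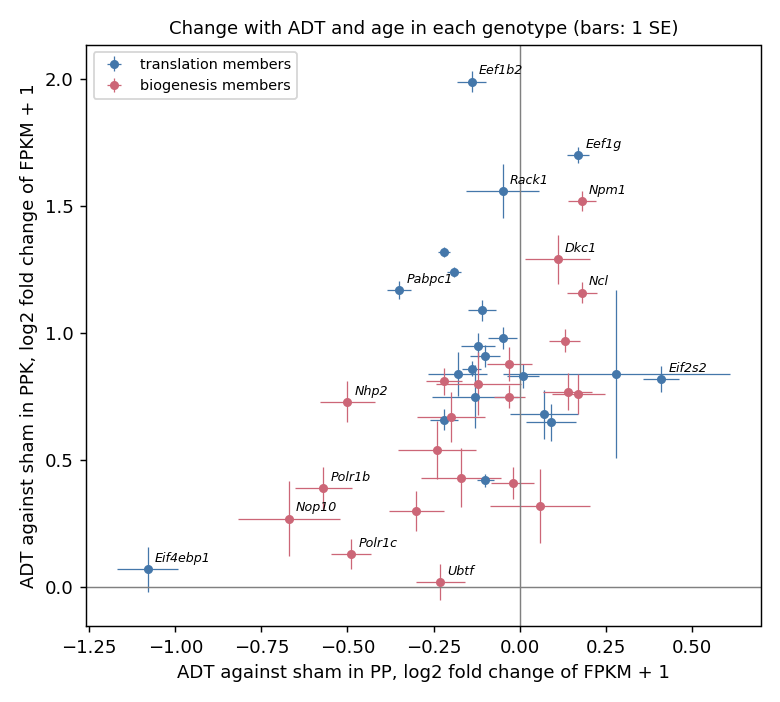
Log2 fold change of FPKM + 1 with ADT and age in PP (horizontal axis) and PPK (vertical axis) for each of the 42 genes, with bars of 1 SE and colour by class. All 42 points lie above 0 on the vertical axis, and 29 of 42 lie to the left of 0 on the horizontal axis.

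The wider pathway moved less evenly. In PPK against PP among ADT mice, 32.5% of all genes tested were higher and 27.1% lower. Of 31 other initiation factors 21 were higher and 0 lower in PPK among ADT mice, with a median of 0.36, and they included Eif3b (0.82 ± 0.030, adjusted p = 1.57e-06), Eif3i (0.97 ± 0.054, adjusted p = 1.07e-05) and Eif5a (1.01 ± 0.047, adjusted p = 4.93e-06), which helps the ribosome over stalling peptides. Of 10 other elongation and release factors 6 were higher and 3 lower (median 0.42), the latter near the share of all genes. The release factor Gspt1 was at 0.59 ± 0.045 (adjusted p = 5.07e-05) and the recycling factor Abce1 at 0.46 ± 0.046 (adjusted p = 0.000171). Eef2k, the kinase that inhibits eEF2, was higher in PPK among ADT mice (0.71 ± 0.067, adjusted p = 0.000137) and lower among sham mice (-0.82 ± 0.067, adjusted p = 0.000263).

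Of 21 genes that control translation 8 were higher and 7 lower, near the 32.5% and 27.1% of all genes, with values from -1.45 to 1.74 and a median of 0.04. The 3 with the smallest adjusted p were all higher. Rps6, the ribosomal protein that S6 kinase phosphorylates, rose by 1.58 ± 0.032 (adjusted p = 1.46e-07). The mTOR inhibitors Ddit4 (1.74 ± 0.044, adjusted p = 3.36e-07) and Sesn2 (1.65 ± 0.051, adjusted p = 7.87e-07) rose as well, and Ddit4 fell by 1.04 with ADT in PP (adjusted p = 6.48e-06).

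The lists of other biogenesis genes stand against 32.5% of all genes higher and 27.1% lower in PPK among ADT mice. Of 46 small subunit factors 29 were higher and 5 lower (median 0.39), led by Nob1 (1.52 ± 0.095, adjusted p = 1.85e-05), the nuclease that makes the mature end of the small subunit RNA. Nol6 (1.10 ± 0.069, adjusted p = 1.89e-05) and Wdr43 (0.83 ± 0.062, adjusted p = 4.35e-05) act earlier on the same particle. Of 48 large subunit factors 37 were higher and 3 lower (median 0.53), among them Nop53 (1.18 ± 0.038, adjusted p = 9.3e-07), Nsa2 (1.00 ± 0.039, adjusted p = 2.23e-06) and the helicase Ddx21 (0.73 ± 0.041, adjusted p = 1.23e-05). Of 18 other RNA polymerase I genes 11 were higher and 3 lower (median 0.39), with Polr2h (1.26 ± 0.12, adjusted p = 0.000169) and Polr1d (1.00 ± 0.069, adjusted p = 3.04e-05), subunits shared with other polymerases, and the promoter factor subunit Taf1d (1.05 ± 0.081, adjusted p = 5.2e-05). Of 9 assembly factors of snoRNPs 3 were higher, near the 32.5% of all genes, and 0 lower, with a median of 0.07. The 3 were the ATPases Ruvbl1 (0.53) and Ruvbl2 (0.76) and Naf1 (0.70), an H/ACA assembly protein.

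Sequence features were set beside the values, of which the pyrimidine run is tied to the choice of the translation genes. Of the 42 genes, 9 (21.4%: Eef1b2, Eef2, Eif4a1, Tpt1, Rack1, Ncl, Nop56, Nop58 and Dkc1) held an annotated snoRNA gene within their bounds on the same strand, against 2.68% of the genes tested. Their median log2 fold change in ADT mice was 1.19 (0.45 to 2.04), against 0.83 (0.10 to 1.76) for the other 33. The 5 genes with a long pyrimidine run in a start window had a median of 0.87 (0.10 to 1.67), against 0.81 (0.21 to 2.04) for the 27 others with a window. The 7 genes with CACGTG had a median of 0.75, against 0.82 for the 25 without it. The values of the genes with and without the feature overlapped in each of the 3 splits.

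Other measures also differed between the groups, not all of them in the pattern of these genes. Between PP ADT and PPK ADT, 8 of 9 basal and squamous markers were higher and none was lower, against 32.5% and 27.1% of all genes. Trp63, 1 of the 9, reached 1 FPKM in the PPK ADT libraries only (23.4 and 23.2). Its presence among the tested genes thus rests on that group, and its call is no support for the count. Krt5, the basal keratin, went from 94.3 and 96.8 to 3242 and 3243 FPKM and Krt14 from 14.3 and 17.2 to 1504 and 1542. Itga6, the gene of the sort marker CD49f and the marker of this list that did not pass, had 34.2 and 32.6 FPKM in PP ADT and 33.9 and 34.4 in PPK ADT. All 7 luminal markers were lower, with Krt8 at 1856 and 1883 in PP ADT and 294 and 286 FPKM in PPK ADT.

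Proliferation genes were also highest in PPK ADT and lowest in PP ADT. Their 20 markers summed to 77.8 and 78 FPKM in PP sham, 79.4 and 80.7 in PPK sham, 52.2 and 56.3 in PP ADT and 134 and 138 in PPK ADT. In PPK against PP among ADT mice 18 of 20 were higher (median 1.24), against 32.5% of all genes. With ADT in PP 13 of 20 were lower, against 25.1% of all genes. The proliferation marker Mki67 was at 2.65 and 2.69 FPKM in PP ADT and 10.5 and 10.5 in PPK ADT. Fibroblast markers summed to 4.96 and 4.97 FPKM in PP ADT and 31.2 and 32.7 in PPK ADT. Smooth muscle markers summed to 1.8 and 2.34 against 11.9 and 12 and neutrophil markers to 4.8 and 4.86 against 12.6 and 12.8. For red blood cell markers the sums were 7.54 and 9.75 against 20.8 and 25.1. Macrophage markers were lower in sum (136 and 146 against 53.8 and 54.5 FPKM). In sham mice, where the 42 genes differed little, fibroblast markers summed to 5.93 and 6.37 FPKM in PP and 19.1 and 19.7 in PPK. Smooth muscle (2.09 and 2.17 against 5.59 and 5.94), neutrophil (0.484 and 0.508 against 4.92 and 6.66) and macrophage sums (65.4 and 65.6 against 133.5 and 135.3) were also higher in PPK sham. Endothelial markers summed to at most 7.07 FPKM and the 12 lymphocyte markers to at most 1.09 FPKM in any library, with Klrb1c (lymphocyte) and Elane (neutrophil) at 0 in all. The part of these cells, and of cell division, in the values of the 42 genes was not tested.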

How the data were processed

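Epithelium from mouse prostate was profiled by RNA sequencing in 8 libraries, made strand-specific from total RNA per the labels' protocols. The authors deposited FPKM per Ensembl gene and library. FastQC 0.11.2 and mm10 are listed per the submitters' processing notes. The aligner, the counting program and the gene models they used are not given in the sources. Symbols and coordinates came from GENCODE (GRCm38), and sequences from RefSeq (GRCm38.p6). Of 55335 identifiers 55154 had a symbol. FPKM divides by the library total, so genes that take a large share of a library lower all others. Fragment counts could not be recovered, since 13.8 to 15.7% of values below 5 estimated fragments lay within 0.02 of a whole fragment, so no count test was run, and the depth given is an estimate.

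Genes with at least 1 FPKM in at least 2 libraries were fitted as log2(FPKM + 1) with limma 3.58.1 (R 4.3.3) as 4 group means sharing 1 spread with a mean-variance trend, with Benjamini-Hochberg adjustment over all 14000 genes. The 5 comparisons share libraries. A difference passed at an adjusted p under 0.05. Alternatives changed the pseudocount, filter, scaling, trend and libraries used. The fit was tested on simulated data. Summaries were made in Python 3.11.15 (pandas 2.3.3), plots with matplotlib 3.10.9.

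The genes and lists were chosen with earlier results of these data known. Values in every library are given for the gene of highest mean FPKM and up to 2 with the largest passing change in each role, and for Eif4ebp1. Eef1d, Eif4e, Rrp9, Polr1c and Ubtf, and the keratins, Itga6 and Mki67, were added after their values were seen. From each of the 7 other pathway lists, up to 3 genes with the smallest adjusted p are named. The organoid experiments that the series' design text mentions are not analysed here, and the shared deleted gene is not reported here.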

Additional observations from a re-analysis of the deposited data

Results flagged for a closer look

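For 39 of the 42 genes the genotype effect differed between ADT and sham mice by the interaction test of limma (adjusted p under 0.05). The values below are the log2 effect in ADT mice minus that in sham mice, with all of them positive.

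Among elongation factors the difference was 2.13 for Eef1b2, 1.54 for Eef1a1, 1.53 for Eef1g, 1.43 for Eef2 and 0.88 for Eef1d. Among initiation factors it was 1.2 for Eif4b, 1.07 for Eif3l, 1.03 for Eif3h, 1.01 for Eif3e, 0.88 for Eif3k, 0.61 for Eif4a1, 0.55 for Eif3m, 0.53 for Eif3f and 0.42 for Eif2s2. The other translation genes gave 1.61 for Rack1, 1.52 for Pabpc1, 1.15 for Eif4ebp1, 1.02 for Btf3, 1.01 for Tpt1 and 0.82 for Naca.

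Among nucleolar proteins the difference was 1.33 for Npm1, 1.03 for Nolc1 and 0.98 for Ncl. The snoRNP proteins gave 1.24 for Nhp2, 1.17 for Dkc1, 0.94 for Nop10, 0.92 for Nop56, 0.87 for Fbl, 0.78 for Gar1 and 0.59 for Nop58. The large subunit genes gave 0.92 for Nop16, 0.78 for Pes1, 0.60 for Wdr12, 0.60 for Rrs1 and 0.43 for Bop1. The call of Wdr12 was lost under 5 of 14 alternatives. The RNA polymerase I genes gave 0.96 for Polr1b, 0.84 for Mybbp1a, 0.63 for Polr1a and 0.62 for Polr1c.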

How the results depend on the processing

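The log2 fold change of PPK against PP among ADT mice was positive for all 42 genes under every scaling tried. Not all passed: Eif4e and Rrp9 did so under no scaling. Eif4a1 lost its call with quantile normalization (limma adjusted p = 0.078) and Ubtf with median-of-ratios scaling. No scaling moved the median of all genes by more than 0.06 (log2). Of 3298 values for single genes under the alternatives, 3174 kept their side of the threshold, 94 lost and 29 gained the threshold, and 1 that had passed reversed. Values that did not pass could change sign and still count among the 3174. Eif4e in PPK against PP among sham mice went from -0.46 to 0.12 without PPK sham replicate B. Most changes were in ADT against sham in PP (46 lost, 11 gained) and in PPK against PP in sham mice (25 lost, 7 gained). The value that reversed, for Tpt1 with ADT in PP, was -0.14 and became 0.04 with quantile normalization. The cause was not tested.

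For PPK against PP in sham mice, of the 8 translation genes that passed, 5 passed with no mean-variance trend, and 4 to 8 when single libraries were left out. The 1 biogenesis gene became 2 with a mean FPKM of at least 5 or median-of-ratios scaling, 0 with only the 2 groups compared, and 0 to 2 when single libraries were left out. For ADT against sham in PP, 4 to 8 biogenesis genes passed with 1 library left out, against 9 with all. A lone library left in a group was assumed to vary like the other groups.

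With a 2-fold minimum, added after seeing the data, the counts for translation and biogenesis genes were 0 and 0 for the genotypes in sham mice, 8 and 4 for the genotypes in ADT mice, 1 and 0 for ADT in PP, and 7 and 3 for ADT in PPK.

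Libraries sharing a letter (A or B) did not deviate together from their group means (correlations from -0.00791 to 0.0566), so letters were not used as pairs. With a replicate block the counts for translation and biogenesis genes were 7 and 1 for the genotypes in sham mice, 20 and 19 for the genotypes in ADT mice, 10 and 8 for ADT in PP, 19 and 17 for ADT in PPK, and 20 and 19 for the difference of genotype effects. Genes near 1 FPKM, such as Wdr12, rest on few fragments.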
